A study of Mus musculus with 80 samples.

Results

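The 7 RGS genes described here, the regulators of G-protein signalling Rgs1, Rgs2, Rgs16, Rgs10, Rgs14, Rgs19 and Rgs20, were followed through every brain cell preparation of the study. They were taken by symbol from its count tables, in which all 7 were found among 15534 genes present in both. The list was selected on the levels and fold changes of these genes in the same libraries, so the members' values are a description and carry no p-value. All mice carried the genotype Cx3cr1(Jung)-cre/Ert2+;NuTRAP+, in which tamoxifen, given by daily injection at about 3 months of age at 100 mg/kg, turns on a GFP tag on the ribosomes of Cx3cr1-expressing cells. In brain these are microglia, but the driver also labels border macrophages. RNA was sequenced before the pulldown of tagged ribosomes (Input) and after it (TRAP, translating ribosome affinity purification).

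In the cell preparation comparison, brain tissue was homogenized directly (Tissue), dissociated mechanically in the cold (Dounce), or dissociated with papain at a warm step without or with actinomycin D, triptolide and anisomycin (Cell (-) Inhibitors and Cell (+) Inhibitors), with 4 libraries per group and fraction. Tissue and Cell libraries came from single hemispheres, whereas the study's text names both hemispheres and whole brains for Dounce. These 3 drugs block transcription or translation. In the sort comparison, Tissue and an unsorted enzymatic suspension (Cell) were set beside microglia sorted by CD11b beads (autoMACS, n = 4), by a FACS cartridge (Tyto, n = 5), by both in turn (autoMACS to Tyto, n = 3) or by a FACS cytometer (FACSAria, n = 4). The Tissue libraries of both comparisons came from the same 4 mice, and the Cell (-) and Cell (+) Inhibitors libraries from opposite hemispheres of 4 other mice. By their mouse numbers, autoMACS and autoMACS to Tyto shared 3 mice, and Tyto and FACSAria shared 3 others. The Tissue, Dounce and Cell libraries of the cell preparation comparison carry different mouse numbers, so preparation and set of animals cannot be told apart there. In the sort comparison, Tissue and Cell share their mice, but no sorted library shares a mouse with them. Sorting and set of animals therefore cannot be told apart in any comparison of the sorts with Cell. Total counts per library ran from 2471448 to 14650287 in the cell preparation comparison, lowest in Dounce-TRAP (2471448 to 4724538), and from 7129464 to 20168116 in the sort comparison. For Input of the cell preparation comparison, the paper reports the lowest RNA yield and RNA integrity in Dounce. In both fractions it describes stronger 3′ bias for Tissue and Dounce than for the enzymatic Cell groups. The part of RNA quality in the members' values was not tested.

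RGS proteins bind active G-protein alpha subunits and speed up the hydrolysis of their GTP, which ends signalling from G-protein-coupled receptors. Microglia depend on such receptors, among them the ADP receptor P2ry12 and the chemokine receptor Cx3cr1, for movement toward injury. Rgs1, Rgs2 and Rgs16 belong to the R4 subfamily, which is known for inducible members. Rgs10 and Rgs14 belong to the R12 subfamily, and Rgs19 (also called GAIP) and Rgs20 belong to the Rz subfamily. Rgs2 acts mainly on Gq, Rgs10 is long known from microglia and other leukocytes, and Rgs14, a larger scaffold protein, is best known from hippocampal neurons. In the mm10 assembly, 4 of the members lie on chromosome 1: Rgs20 at chr1:4909576-5070285, Rgs2 at chr1:143999338-144004149, Rgs1 at chr1:144244669-144249104 and Rgs16 at chr1:153740353-153745468. Rgs2 and Rgs1 are separated by 241 kb, and Rgs16 lies 42.7 kb from Rgs8. Rgs10 is at chr7:128373625-128418172, Rgs14 at chr13:55369732-55384687 and Rgs19 at chr2:181688423-181693924.

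Rgs2 had lower levels with the inhibitors than without, Rgs10 did not, and Rgs16 was lower in every dissociated preparation than in Tissue, so the 250 bases before the start of these 3 genes are shown, from RefSeq on GRCm38.p6, 5′ to 3′ on the gene's own strand. Capitals mark TGACG, the core of the site of cAMP-responsive factors, and GGGCGG, the core of an Sp1 site, on either strand. The Rgs2 window is chr1:144004150-144004399 (minus strand), the Rgs16 window chr1:153740103-153740352 (plus strand) and the Rgs10 window chr7:128418173-128418422 (minus strand).
Rgs2: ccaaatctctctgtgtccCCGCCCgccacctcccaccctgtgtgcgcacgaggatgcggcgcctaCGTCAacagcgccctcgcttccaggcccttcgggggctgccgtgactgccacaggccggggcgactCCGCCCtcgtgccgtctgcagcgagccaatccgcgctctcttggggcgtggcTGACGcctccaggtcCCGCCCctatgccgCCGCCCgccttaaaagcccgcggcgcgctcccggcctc
Rgs16: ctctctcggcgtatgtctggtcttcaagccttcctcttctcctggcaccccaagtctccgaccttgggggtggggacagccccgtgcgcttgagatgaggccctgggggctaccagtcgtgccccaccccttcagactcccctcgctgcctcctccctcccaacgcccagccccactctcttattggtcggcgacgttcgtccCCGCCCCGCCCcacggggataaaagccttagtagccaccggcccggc
Rgs10: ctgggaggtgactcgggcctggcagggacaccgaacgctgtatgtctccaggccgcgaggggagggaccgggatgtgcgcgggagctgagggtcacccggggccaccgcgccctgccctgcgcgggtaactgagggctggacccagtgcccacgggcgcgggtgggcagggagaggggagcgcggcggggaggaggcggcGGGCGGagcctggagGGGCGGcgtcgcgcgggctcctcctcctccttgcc
TGACG was found at 2 places in the Rgs2 window, beginning 185 and 67 bases before the start, and in neither of the other windows. Of 32851 RefSeq promoter windows of the same length, 17.8% hold TGACG and 32.7% hold GGGCGG. The latter was found 4 times before Rgs2, 2 times in overlap before Rgs16 and at 2 separate places before Rgs10. Neither the full palindrome TGACGTCA (1.55% of windows), nor TGANTCA (6.75%), nor TATAAA (12.4%) occurs in these 3 windows on either strand. A match describes the letters of the window and not a site in use. Of the other members, Rgs19 matched 3 RefSeq starts, which are not shown, and Rgs1, Rgs14 and Rgs20 were not matched.

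The purity of the fractions bears on every level below. The summed level of 6 microglial marker genes, in CPM (read counts scaled to library size, TMM-normalized), was 5287 to 6068 in Tissue-TRAP of the cell preparation comparison, 27500 to 33880 in Dounce-TRAP and 31140 to 36170 in Cell-TRAP (-) Inhibitors. The sum of 6 neuronal marker genes was 6078 to 7268, 979 to 1740 and 71.1 to 166 in the same groups, and Tissue-TRAP thus still held neuronal RNA. In the TRAP libraries of the 4 sorts the neuronal sum was 3.14 to 8.77. Other cells differed between the preparations too. In the TRAP libraries of Tissue, Dounce and Cell (-) Inhibitors, in that order, 6 border macrophage markers summed to 202 to 276, 803 to 1835 and 716 to 1649 CPM, 6 endothelial markers to 154 to 246, 52.9 to 71.3 and 453 to 1021 CPM, and 7 blood markers to 26.4 to 40.2, 247 to 603 and 135 to 624 CPM. Their part in the members' values was not tested. In bulk RNA, fewer cells of a type and less RNA per cell cannot be told apart.

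Per kilobase of exon, the members held a minority of the summed level of the 19 numbered Rgs genes in Tissue-Input and nearly all of it in the sorted libraries. The 7 members held 33.4% of that sum in Tissue-Input of the cell preparation comparison, 72.2% in Tissue-TRAP, 96.0% in Dounce-TRAP, 97.2% in Cell-TRAP (-) Inhibitors and 98.4% to 98.8% in the Input and TRAP libraries of the 4 sorts. Rgs10 had the highest level per kb and Rgs2 the next in every sorted group, in every enzymatic Cell group and in Dounce-TRAP. Rgs10 and Rgs2 together held 16.9% in Tissue-Input and 88.3% to 90.4% in the sorted groups. Tissue-Input was led instead by Rgs4 and Rgs8, at 63.2 and 40.7 CPM per kb against 29.1 for Rgs10. The exon lengths are those of GENCODE M21, which may differ from the gene models the authors counted on.

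**Figure D1:**
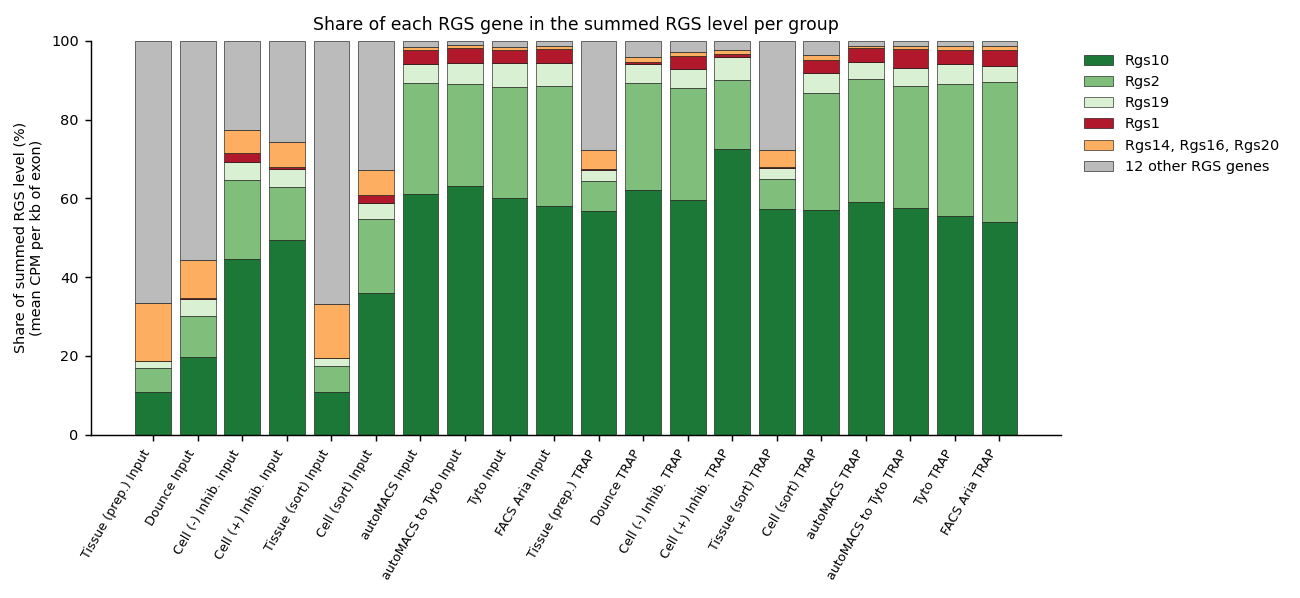
Share of each RGS gene (y axis, percent) in the summed mean CPM per kb of 19 Rgs genes, for the 20 groups (x axis), Input groups left and TRAP groups right. The 12 genes outside the list (grey) hold most of the sum in Tissue-Input and under 2% in the 4 sorts, where Rgs10 (dark green) and Rgs2 (mid green) hold most of it.

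Rgs1, an inducible R4 member best known from lymphocytes, was high in TRAP RNA after enzymatic dissociation without inhibitors and lower in the other preparations. In TRAP RNA of the cell preparation comparison its level was 3.47, 6.30, 2.63 and 1.75 CPM in the 4 Tissue libraries, 20.3, 11.2, 3.88 and 18.5 CPM in Dounce, 22.8, 24.3, 25.2 and 33.5 CPM in Cell (+) Inhibitors and 114, 132, 124 and 115 CPM in Cell (-) Inhibitors. Enzymatic preparation without inhibitors stood apart from every other group, Cell (+) Inhibitors lay between it and the rest, and the ranges of Dounce and Tissue overlapped. Against Tissue-TRAP the log2 fold change was 5.16 ± 0.35 (SE, n = 4 and 4) for Cell (-) Inhibitors, 2.97 ± 0.34 for Cell (+) Inhibitors and 2.02 ± 0.37 for Dounce. With inhibitors against without, the log2 fold change of Rgs1 was -2.19 ± 0.29, and in the 4 mice the log2 ratio of the hemispheres ran from -2.44 to -1.78. The Dounce value rests on few reads, with 73, 53, 10 and 60 counts in the 4 libraries.

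The Input fraction gave the same order for Rgs1 at lower levels. It was 26, 31.2, 24 and 24.3 CPM in Cell-Input (-) Inhibitors and 5.42, 6.23, 6.06 and 8.96 CPM in Cell-Input (+) Inhibitors, with no overlap and a log2 fold change of -1.98 ± 0.39. Dounce-Input held 14, 12, 0 and 24 counts, and Tissue-Input 3, 0, 0 and 0 counts, too few for a fold. The call of the inhibitor difference in Input was lost when any of 4 single libraries was left out (Cell-Input (+) Inhibitors replicates 1, 2 or 3, or Cell-Input (-) Inhibitors replicate 2), although the log2 fold change stayed between -2.17 and -1.89 over all libraries left out in turn.

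**Figure D2:**
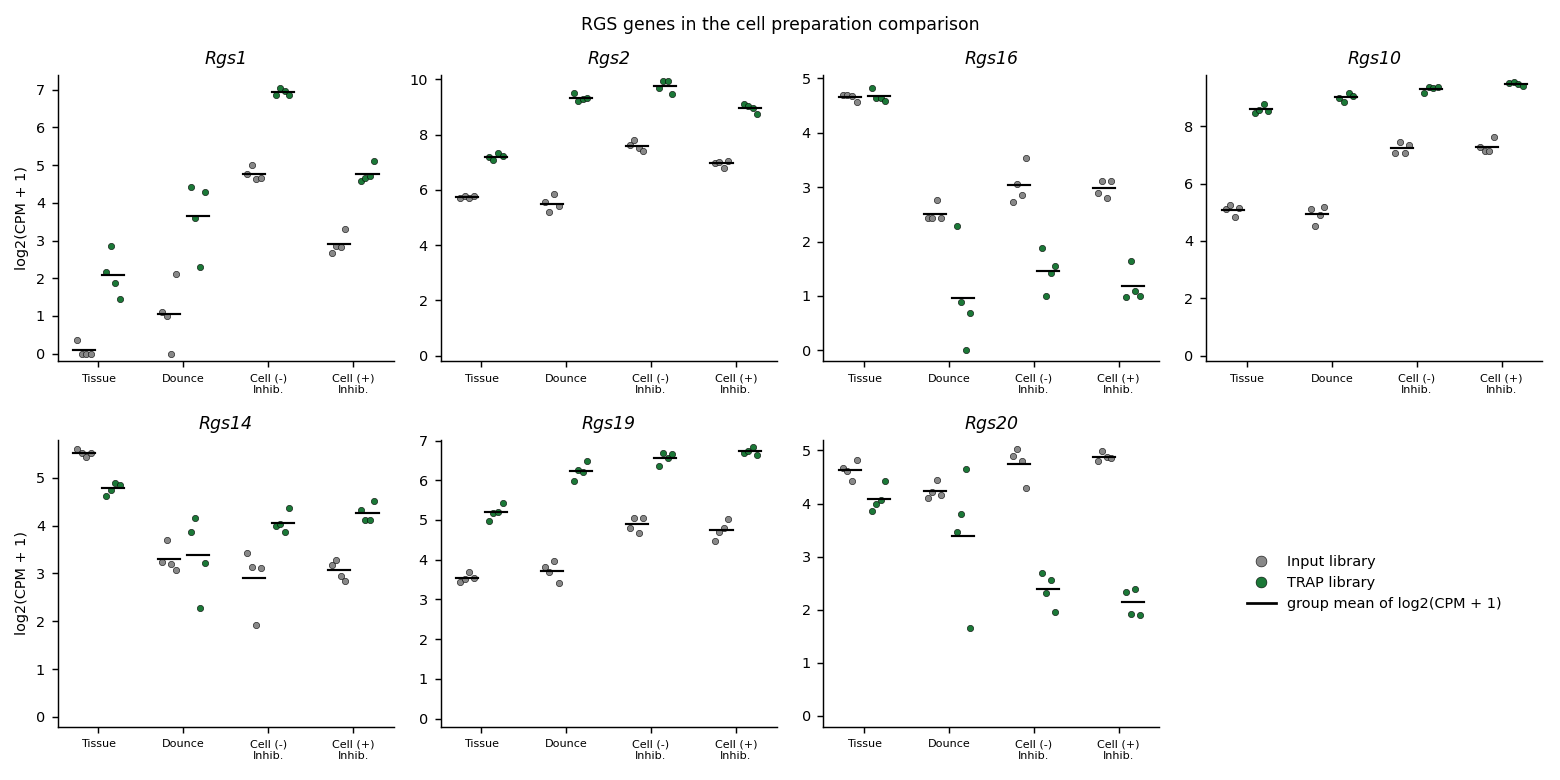
Level of each of the 7 genes, as log2(CPM + 1) (y axes, each with its own scale), in the 4 preparations of the cell preparation comparison (x axes); each point is 1 library, grey for Input and green for TRAP, and lines are group means. Rgs1 is highest in Cell (-) Inhibitors and Rgs16 in Tissue, in both fractions, and Rgs1 and Rgs2 lie lower in Cell (+) than in Cell (-) Inhibitors with no overlap.

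In the sort comparison Rgs1 was again near the floor in Tissue and high in every enzymatic preparation. Tissue-TRAP held 2.64, 4.02, 3.15 and 1.74 CPM and Cell-TRAP 61.1, 162, 111 and 100 CPM, a log2 fold change of 5.24 ± 0.32. The TRAP libraries of the 4 sorts ranged from 106 to 212 CPM, and their mean differed from Cell-TRAP by a log2 fold change of 0.37 ± 0.19, below the fold threshold. In Input the sorted libraries (90.9 to 186 CPM) lay above all 4 Cell-Input libraries (8.33 to 25.1 CPM), with a log2 fold change of 2.70 ± 0.24, and Cell-Input lay above Tissue-Input (0.0870 to 0.653 CPM).

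Rgs2 was higher in TRAP RNA of every dissociated preparation than in Tissue-TRAP, including the cold one. Its level was 144, 135, 158 and 150 CPM in Tissue-TRAP, 720, 595, 629 and 639 CPM in Dounce-TRAP, 545, 524, 500 and 431 CPM in Cell-TRAP (+) Inhibitors and 824, 976, 976 and 710 CPM in Cell-TRAP (-) Inhibitors. Tissue was separate and lowest, Cell (+) Inhibitors lay below Dounce, and the highest Dounce library (720 CPM) lay just above the lowest of Cell (-) Inhibitors (710 CPM). The log2 fold change against Tissue-TRAP was 2.62 ± 0.12 for Cell (-) Inhibitors, 1.83 ± 0.11 for Cell (+) Inhibitors and 2.20 ± 0.11 for Dounce. With inhibitors against without, it was -0.79 ± 0.11 in TRAP and -0.65 ± 0.12 in Input, under the fold threshold in both fractions but lower in 4 of 4 mice in each.

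In Input, Rgs2 was not higher in Dounce than in Tissue. It was 51.4, 53.9, 50.8 and 53.4 CPM in Tissue-Input and 46.2, 35.7, 56.4 and 41.2 CPM in Dounce-Input, which overlapped (log2 fold change -0.02). Cell-Input (-) Inhibitors reached 167 to 224 CPM and Cell-Input (+) Inhibitors 110 to 132 CPM. In the sort comparison Tissue-TRAP held 103 to 129 CPM, Cell-TRAP 799 to 867 CPM and the sorted TRAP libraries 815 to 1204 CPM.

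Rgs16, another R4 member, was lower in every dissociated preparation than in Tissue. TRAP RNA held 27.5, 23.8, 23.8 and 23.1 CPM in Tissue, 3.90, 0.842, 0 and 0.617 CPM in Dounce, 2.67, 0.998, 1.67 and 1.92 CPM in Cell (-) Inhibitors and 0.974, 2.12, 1.12 and 0.996 CPM in Cell (+) Inhibitors. Every dissociated library was below every Tissue library, while the 3 dissociated groups overlapped. Against Tissue-TRAP the log2 fold change was -3.69 ± 0.46 for Cell (-) Inhibitors and -4.17 ± 0.48 for Cell (+) Inhibitors. For Dounce it was -4.06 ± 0.53, on 14, 4, 0 and 2 counts, and ran from -5.41 without Dounce-TRAP replicate 1 to -3.75 over the libraries left out in turn. Tissue-Input (22.7 to 25 CPM) overlapped Tissue-TRAP, and Cell-Input (-) Inhibitors (5.6 to 10.6 CPM) lay above all its TRAP libraries.

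After sorting, Rgs16 was near the floor. The 16 sorted Input libraries held 51 counts in all, against 583 in the 4 Cell-Input libraries of the same comparison. Per pooled total count that was 2.66% of Cell-Input (95% exact interval 1.96% to 3.54%, covering counting error only). The pooled shares here use library totals without TMM factors, unlike the CPM elsewhere. By TMM-normalized means, Rgs16 was at 7.41 CPM in Cell-Input and 0.166 to 0.520 CPM in Input of the 4 sorts. In TRAP, 33 counts over 16 sorted libraries stood against 122 over the 4 Cell libraries, 5.98% of the level (3.94% to 8.85%), and 6 of the 16 libraries were at 0. The summed neuronal markers were lower after the same step, from 104 or more summed CPM in Cell-TRAP to at most 8.77 in the sorts; their part in the Rgs16 values was not tested.

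**Figure D3:**
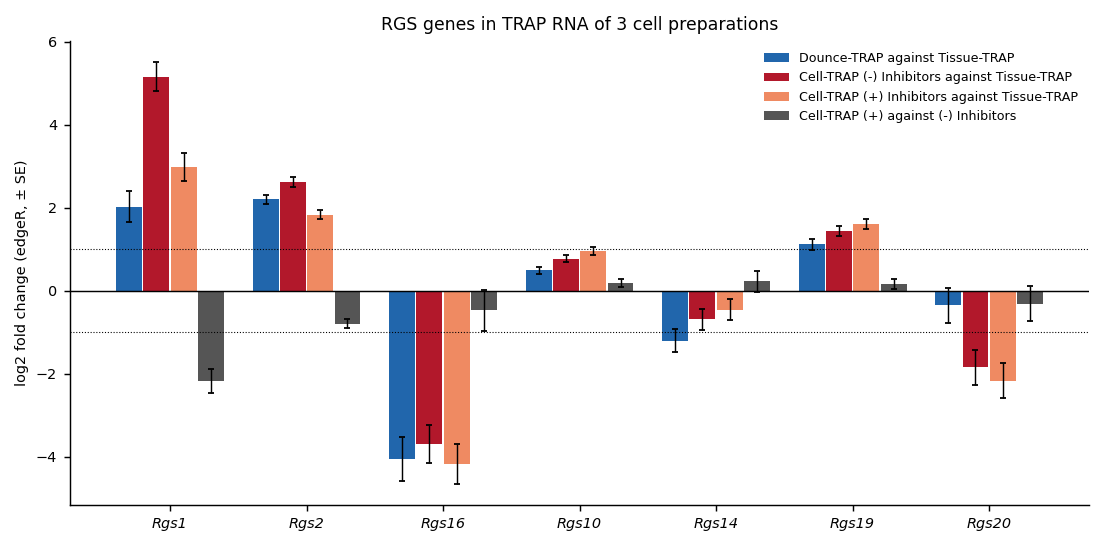
Log2 fold change of the 7 genes in TRAP RNA (y axis) for 4 comparisons of the cell preparations (bar colours), with the SE of the edgeR fit as error bars (4 libraries per group) and dotted lines at 2-fold. Rgs1, Rgs2 and Rgs19 are higher and Rgs16 lower than Tissue-TRAP in all 3 preparations, and Rgs1 has the largest difference with inhibitors against without.

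Rgs10, which had the highest level per kb of the 7 in the dissociated and sorted groups, differed less between preparations than 2-fold in TRAP. Its TRAP level was 355, 381, 440 and 367 CPM in Tissue, 506, 464, 576 and 528 CPM in Dounce, 576, 657, 651 and 653 CPM in Cell (-) Inhibitors and 731, 751, 716 and 673 CPM in Cell (+) Inhibitors. The group means stood in that order, and no Tissue library reached a dissociated one, yet all differences from Tissue stayed below 2-fold (log2 fold change 0.49 ± 0.09, 0.77 ± 0.09 and 0.95 ± 0.09). Unlike Rgs1 and Rgs2, Rgs10 was slightly higher in TRAP with inhibitors than without, in 4 of 4 mice, by a log2 fold change of 0.19 ± 0.09. Rgs14 was higher in 4 of 4 mice too (0.23 ± 0.26), and Rgs19 in 3 of 4 (0.17 ± 0.12). In Input the Rgs10 value was 0.06 ± 0.14 and ran from -0.07 to 0.13 with libraries left out in turn.

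Rgs10 differed more between fractions and after sorting. Tissue-Input held 27.7 to 36.9 CPM, and the log2 fold change of TRAP against Input was 3.54 ± 0.14 in Tissue, 4.11 ± 0.14 in Dounce and 2.07 ± 0.13 in Cell (-) Inhibitors. In the sort comparison Rgs10 was at 75 to 92.2 CPM in Cell-Input and 549 to 756 CPM in the sorted Input libraries, a log2 fold change of 2.69 ± 0.09. In TRAP, Cell (494 to 616 CPM) and the sorts (529 to 769 CPM) overlapped.

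Rgs14 was high in Tissue-Input, at 47.8, 45.1, 42.1 and 44.6 CPM, and lower in Dounce-Input (7.44 to 11.9 CPM) and Cell-Input (-) Inhibitors (2.78 to 9.69 CPM), with log2 fold changes of -2.09 ± 0.24 and -2.81 ± 0.25. In TRAP the groups were closer: 23.6, 26, 28.7 and 27.7 CPM in Tissue, 13.7, 16.8, 3.88 and 8.33 CPM in Dounce and 14.9, 15.4, 13.5 and 19.5 CPM in Cell (-) Inhibitors. Only the Dounce difference from Tissue-TRAP passed the threshold (-1.21 ± 0.28), and it did not without Dounce-TRAP replicate 3, the library of lowest depth (-0.96). In the sort comparison Rgs14 was at 28.9 to 35.7 CPM in Tissue-Input and 2.78 to 4.65 CPM in Cell-Input. The sorted Input libraries held 11.4 to 21.9 CPM, a log2 fold change of 1.86 ± 0.15 for the mean of the 4 sorts against Cell. In TRAP the sorts held 13.6 to 22.5 CPM and Cell 14.2 to 19.6 CPM. The summed neuronal markers in the sorts were at most 37 CPM in Input and 8.77 CPM in TRAP.

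Rgs19, a GTPase-activating protein for Gi-class subunits, was higher in every dissociated TRAP preparation than in Tissue-TRAP and about level between the inhibitor groups. Its TRAP level was 30.6, 35.3, 36 and 42 CPM in Tissue, 61.9, 75.7, 73.0 and 88.8 CPM in Dounce, 80.5, 103, 93.9 and 99.8 CPM in Cell (-) Inhibitors and 102, 106, 114 and 98.3 CPM in Cell (+) Inhibitors. Tissue was lowest without overlap, and the 2 Cell groups overlapped. The log2 fold change against Tissue-TRAP was 1.44 ± 0.13 for Cell (-) Inhibitors, 1.60 ± 0.13 for Cell (+) Inhibitors and 1.11 ± 0.13 for Dounce. In the sort comparison Rgs19 was at 16.6 to 20.1 CPM in Cell-Input and 74.9 to 122 CPM in the sorted Input libraries. Its difference between Cell-Input and Tissue-Input (8.10 to 10.1 CPM) was 1.09 ± 0.13 on the log2 scale and fell just below 2-fold with the mouse as a block (0.96).

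Rgs20, the other Rz member, was higher in Input than in TRAP of every unsorted enzymatic preparation. Cell-Input (-) Inhibitors held 28.9, 31.7, 26.7 and 18.5 CPM and Cell-TRAP (-) Inhibitors 5.49, 3.99, 4.92 and 2.88 CPM, with no overlap and a log2 fold change of -2.61 ± 0.30. Tissue-Input (20.6 to 27.1 CPM) and Tissue-TRAP (13.6 to 20.4 CPM) were closer. In Dounce-TRAP it was 10.0, 13, 24.1 and 2.16 CPM, on 36, 62, 62 and 7 counts, and the difference from Cell-TRAP (-) Inhibitors (1.50 ± 0.43) passed only with replicate 3 (0.99 without it). After sorting, 13 counts over 16 TRAP libraries stood against 248 over 4 Cell-TRAP libraries, 1.16% of the level (0.608% to 2.02%). In Input, 69 stood against 1660, 1.26% (0.978% to 1.61%). Both pooled shares again use library totals without TMM factors. By TMM-normalized means, Rgs20 was at 20.9 CPM in Cell-Input and 0.0788 to 0.620 CPM in Input of the 4 sorts. The 6 astrocyte markers were lower after the same step, from 3991 to 5040 summed CPM in Cell-Input to 156 to 306 in the sorts; their part was not tested.

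**Figure D4:**
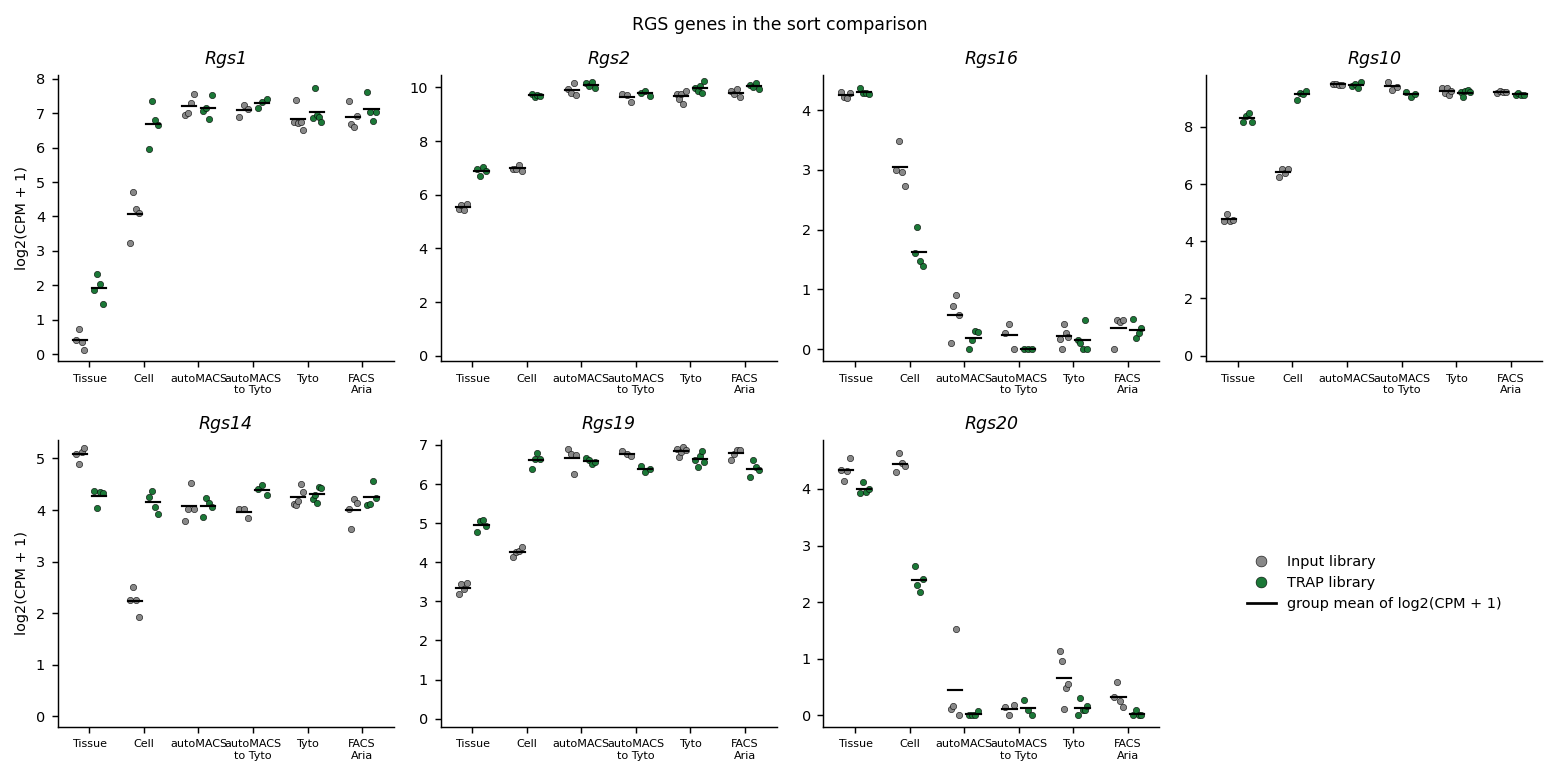
Level of each of the 7 genes, as log2(CPM + 1) (y axes, each with its own scale), in the 6 groups of the sort comparison (x axes); each point is 1 library, grey for Input and green for TRAP, and lines are group means. In the 4 sorts Rgs16 and Rgs20 lie near 0, and Rgs1, Rgs2, Rgs10 and Rgs19 lie well above 0 in both Input and TRAP.

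Counted over all 7 members, Rgs1 alone was called with inhibitors against without, in both fractions. A gene was called where edgeR's quasi-likelihood test gave a Benjamini-Hochberg adjusted p below 0.1 over all genes and the fold change exceeded 2. The members were chosen with these contrasts in view, so their counts are set beside the share of all genes called and nothing is read from them. In TRAP of the cell preparation comparison, 5 of 7 were called in Cell (-) Inhibitors against Tissue (53.2% of all genes), 5 in Cell (+) Inhibitors against Tissue (52.8%) and 5 in Dounce against Tissue (50.3%). Dounce against Cell (-) Inhibitors gave 2 (28.7%), Rgs1 lower and Rgs20 higher. Cell (+) against Cell (-) Inhibitors gave 1, Rgs1, where 0.638% of all genes were called, or 94 of 14723 (150 with the mouse as a block). In Input, 6 were called in Cell (-) Inhibitors against Tissue (44.7%) and 3 in Dounce against Tissue (50.1%). Both counts include Rgs1, although the 4 Tissue-Input libraries together held 3 Rgs1 counts. With inhibitors against without, 1 was called in Input, again Rgs1 (0.311%).

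In the sort comparison, Cell against Tissue called 5 of 7 in TRAP (54.3%) and 6 in Input (46%). The mean of the 4 sorts against Cell called 2 in TRAP (24.4%), Rgs16 and Rgs20, both lower, and all 7 in Input (51.8%), with those 2 lower and the other 5 higher. Between the 4 sorts, edgeR's F test called 0 of 7 in TRAP (4.17%) and 0 in Input (7.42%). At an unadjusted p below 0.05 it gave 4 of 7 in TRAP, where 5091 of all 14953 genes passed. In Input it gave 1, where 4258 of all 15750 genes passed. No other tool was run for it. This test did not take into account that sorts shared mice. Near the floor, the largest fitted log2 difference between any pair of sorts was 4.98 in TRAP and 1.48 in Input for Rgs16. For Rgs20, also near the floor, it was 2.26 and 2.97. For Rgs1, Rgs2, Rgs10, Rgs14 and Rgs19 it was at most 0.36. Within that size the ranges of single sorts could still be apart: Rgs10 was at 662 to 769 CPM in autoMACS-TRAP and 531 to 599 CPM in autoMACS to Tyto-TRAP, and Rgs14 at 13.6 to 17.9 and 18.6 to 21.3 CPM. For TRAP against Input, 4 of 7 were called in Tissue of the sort comparison (12.3%) and 4 in Tissue of the cell preparation comparison (10.5%). In both these were Rgs1, Rgs2, Rgs10 and Rgs19, all higher. The Rgs1 call of the cell preparation comparison rests on 3 counts over the 4 Tissue-Input libraries. All 7 were called in Cell of the sort comparison (48.1%), in Cell (-) Inhibitors (47.3%) and in Cell (+) Inhibitors (45.6%), with Rgs16 and Rgs20 lower and the other 5 higher, and 5 were called in Dounce (47.5%). These comparisons share Tissue or Cell libraries within a table.

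Set against the microglial markers of the same library, and among the 4 preparations of the cell preparation comparison, Rgs1 was highest in Cell-TRAP (-) Inhibitors, Rgs2 was lowest in Cell-TRAP (+) Inhibitors, and Rgs10 and Rgs19 were highest in Tissue-TRAP, where their CPM was lowest. Per 1000 CPM of the 6 summed markers, Rgs1 had a median of 0.520 in Tissue-TRAP, 0.447 in Dounce-TRAP, 0.715 in Cell-TRAP (+) Inhibitors and 3.65 in Cell-TRAP (-) Inhibitors, and only the last did not overlap the other 3 groups, where Tissue and Cell (+) Inhibitors overlapped. Rgs2 had 25.7 in Tissue-TRAP, 26.7 in Cell-TRAP (-) Inhibitors, 20.1 in Dounce-TRAP and 14.8 in Cell-TRAP (+) Inhibitors, so Tissue-TRAP, lowest by CPM, was level with Cell-TRAP (-) Inhibitors. Rgs10 had 67.8 in Tissue-TRAP and 15.3 to 21.1 in the 3 dissociated groups, and Rgs19 6.30 against 2.49 to 3.06. All 6 markers were themselves called higher in Cell-TRAP (-) Inhibitors than in Tissue-TRAP, and these ratios are given as a description.

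**Figure D5:**
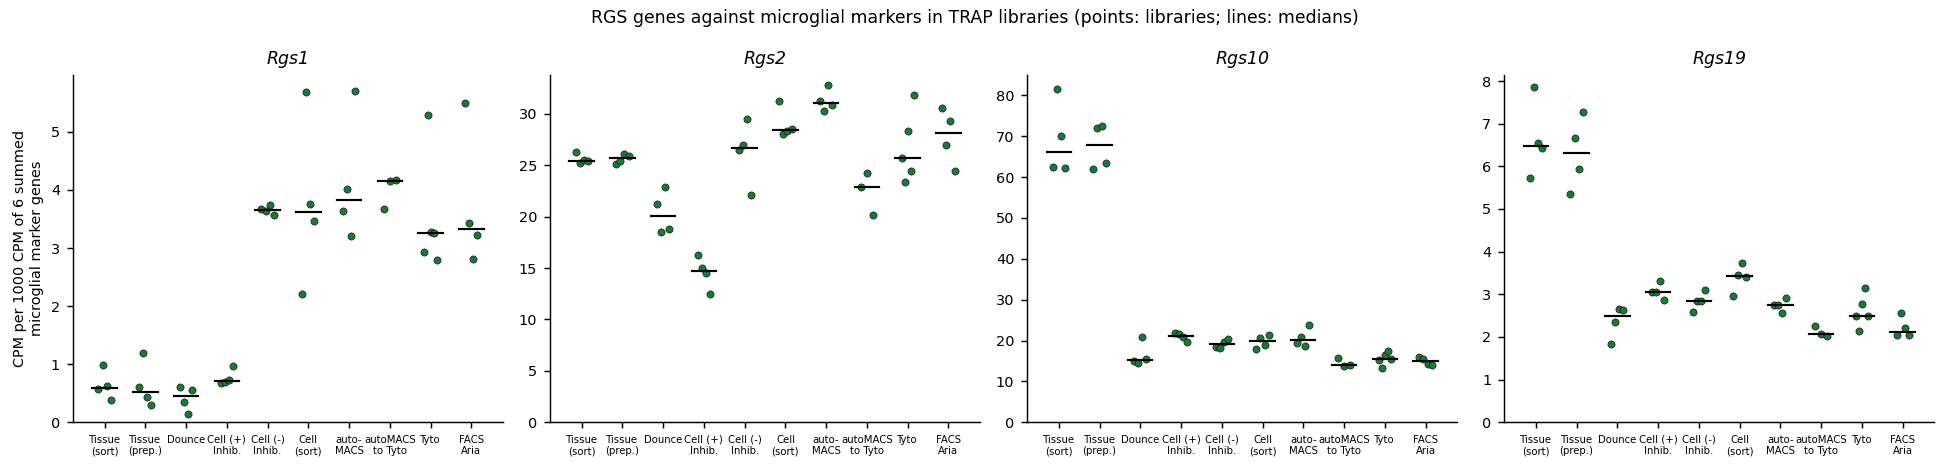
CPM of Rgs1, Rgs2, Rgs10 and Rgs19 per 1000 CPM of 6 summed microglial marker genes (y axes, from 0) in the TRAP libraries of 10 groups (x axes); points are libraries and lines medians. Rgs1 is low in Tissue, Dounce and Cell (+) Inhibitors and high in the other enzymatic groups, and Rgs10 and Rgs19 are highest in Tissue.

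Among the other RGS genes, Rgs3, an R4 member, was the 1 of 13 tested that was called between the inhibitor groups in TRAP. It was at 92.2 to 123 CPM in Cell-TRAP (-) Inhibitors and 37.2 to 46.8 CPM in Cell-TRAP (+) Inhibitors, a log2 fold change of -1.26 ± 0.21 (edgeR, adjusted p = 0.00169). It was also higher in Cell-TRAP (-) Inhibitors than in Tissue-TRAP (1.05 ± 0.21, adjusted p = 0.000164) and lower in Dounce-TRAP than in Cell-TRAP (-) Inhibitors (-1.45 ± 0.22, adjusted p = 2.19e-05). In Input its difference was -0.19 ± 0.09 (adjusted p = 1), and of 15 other RGS family genes edgeR called 0, with 2 at an unadjusted p below 0.05, and DESeq2 called 0. Over all genes, edgeR gave 532 of 15753 at that unadjusted p in Input. Of the 13 other RGS family genes tested in TRAP, Axin1 and Axin2 included, 2 rose (Rgs3 and Rgs18) and 9 fell in Cell (-) Inhibitors against Tissue. Their median was -2.40 against -0.13 for all genes, of which 53.2% were called there.

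Rgs18, the neighbour of Rgs1 and known from blood cells and platelets, was low throughout, at 0.281 to 1.37 CPM in Tissue-TRAP and 1.91 to 5.01 CPM in Cell-TRAP (-) Inhibitors (2.13 ± 0.51, adjusted p = 0.00103). The RGS genes best known from neurons fell in the same comparison: Rgs8 (-7.75), Rgs17 (-7.34), Rgs7 (-5.17), Rgs9 (-4.53), Rgs4 (-4.43), Rgs6 (-3.18) and Rgs11 (-2.40), with Rgs12 (-1.27) and Axin2 (-1.18). Rgs5, a marker of pericytes, was called neither way there (0.24), whereas Dounce-TRAP held 2 Rgs5 counts in 4 libraries against 543 in Tissue-TRAP. Axin1 was not called (0.63), and Rgs22 and Rgsl1 were too low in TRAP of the cell preparation comparison to be tested.

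Of the proteins that work with RGS proteins, Gnb5 and Rgs7bp, partners of the neuronal R7 subfamily, fell in Cell (-) Inhibitors against Tissue in TRAP (-3.33 and -4.13). Of 7 partners tested 5 fell and 0 rose there, the others being Gpsm1 (-1.61), Ric8b (-1.23) and Rgs9bp, which held 2 counts in the 4 Cell-TRAP (-) Inhibitors libraries; Gpsm2 (-0.89) and Gpsm3 (0.99) were not called. Gpsm3, a regulator of Gi subunits known from leukocytes, was 4.10 ± 0.17 higher on the log2 scale in TRAP than in Input of Tissue (adjusted p = 1.93e-19). The counts that follow are again for Cell (-) Inhibitors against Tissue in TRAP. G-protein alpha subunits split there, 4 of 12 higher and 6 lower, led by Gnal (-5.16 ± 0.21) and Gnaz (-4.18 ± 0.22). Of 13 beta and gamma subunits 7 fell and 0 rose, led by Gng3 and Gng13 (-6.16 and -6.10). Of 16 effectors 4 rose and 9 fell, led by Kcnj6 and Adcy1 (-5.20 and -5.16), a potassium channel gated by G proteins and an adenylyl cyclase. Of 8 receptor kinases and arrestins 1 rose, Arrb2 (1.2), and 2 fell, Adrbk2 by the most (-1.48). Of 18 Gi- or Gq-coupled receptors of microglia 15 rose and 0 fell, among them P2ry12 (3.76 ± 0.13), with a median of 2.90. All these values are log2 fold changes from the edgeR fit over all genes. In Cell (-) Inhibitors against Tissue in TRAP, 53.2% of all 14723 genes were called, 3286 higher and 4540 lower, and nothing particular to these lists is read from their counts.

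With inhibitors against without, edgeR called 0 genes of these lists. In TRAP it called 0 of 7 partners, 0 of 12 alpha subunits, 0 of 13 beta and gamma subunits, 0 of 8 receptor kinases and arrestins, 0 of 16 effectors and 0 of 18 receptors in Cell (+) against Cell (-) Inhibitors, with 0, 3, 4, 1, 0 and 5 at an unadjusted p below 0.05. Over all genes, edgeR gave 1313 of 14723 at that unadjusted p. DESeq2's Wald test called 1 gene of these lists, the chemokine receptor Cxcr4, lower with inhibitors. In Input both tools called 0 in each of these lists. At an unadjusted p below 0.05, edgeR gave 0, 0, 0, 1, 0 and 1 there, beside 532 of all 15753 genes.

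Over the 20 group means of both comparisons, each centred within its table on log2(CPM + 1), Rgs1, Rgs2, Rgs10 and Rgs19 varied together, as did Rgs16 and Rgs20. Rgs2 and Rgs19 had a Pearson r of 0.971, Rgs10 and Rgs19 0.962 and Rgs1 and Rgs2 0.939. Rgs16 and Rgs20 had 0.888 with each other and -0.869 and -0.857 with Rgs2, while Rgs14 had between -0.222 and 0.187 with every other member. Of 12932 genes, those closest to Rgs1 included Osm (r = 0.994) and Tnfaip3 (0.992), and those closest to Rgs2 were Tal1, Rab8b and Erf (0.988 to 0.989). Rgs10 was closest to Klk8 (0.994), Cst3 and Fam167b, Rgs19 to Arrb2 (0.992), Dtx4 and Rcbtb2, Rgs16 to Ccdc92, Myo16 (both 0.994) and Kcng4, and Rgs20 to Shisa4, Cadm4 (both 0.996) and Epdr1. Rgs14 had its nearest genes farther off, Usp14 (0.946), Taok2 and Ptk2b. The groups share mice, tables and the contrast of tissue with microglia-rich preparations, and no test was made.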

How the data were processed

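Tables of expected counts per gene were used, 1 for each comparison, as deposited; the authors made them with Strand NGS from reads aligned to mm10, with duplicates removed, and 33.2% (sort comparison) and 20.8% (cell preparation comparison) of the deposited expected counts are exactly whole, zeros included. They were rounded to whole counts, and 23 symbols that a spreadsheet had turned into dates were restored in each table. The authors' log2 normalized columns and an earlier table of 24 libraries were not used.

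Each comparison was fitted over all genes with edgeR 4.0.16 in R 4.3.3 (TMM, quasi-likelihood test), with all groups of a fraction in 1 fit, or both fractions for TRAP against Input. Genes needed more than 5 counts in every library of at least 1 group, and a call needed a Benjamini-Hochberg adjusted p below 0.1 and a fold change above 2. Levels are TMM-normalized CPM over a whole table, so ratios of levels can differ slightly from the fitted folds. The pooled shares of Rgs16 and Rgs20 in the sorts are the exception and use library totals without TMM factors. The scripts were tested on simulated data. The alternatives were DESeq2 1.42.0, its size factors, no filter, a block for the mouse, and each library left out in turn.

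The members and gene lists were chosen with earlier results of these data known. The text names the 7 members, all other RGS family genes and their partners where tested, the 2 members of each G-protein list with the largest called change, and the 3 genes most correlated with each member. Some genes that this rule picks are not reported here. Cxcr4 was named after its value was seen. Replicate numbers come from mouse numbers in the labels. Tissue and Cell of the sort comparison, Cell (+) and Cell (-) Inhibitors, and TRAP and Input of 1 preparation are thus paired by mouse. The sorts share mice in part. All main fits, the paired comparisons included, held the groups only, without a block for the mouse. Their SE and calls therefore leave the pairing out, and the block was run only as an alternative. Same-mouse deviations correlated with a mean r of -0.00623 to 0.372. The counting error of a library depends on its total, given with the results.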

Additional observations from a re-analysis of the deposited data

Results flagged for a closer look

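Of 122 groups of 4 or 5 libraries in which a member's CPM could be checked, 12 had a library that stood apart from the others of its group by Dixon's criterion, which chance alone gives in about 1 of 20 groups. Rgs1 was high in the same mouse in both fractions of the Tyto sort, at 166.17 CPM in Tyto-Input replicate 2 against 90.9 to 106 in the other 4, and at 212.43 CPM in Tyto-TRAP replicate 2 against 106 to 123. They rest on 1743 and 2759 counts. The other hemisphere of that mouse, sorted on the FACSAria (replicate 2), held 103 CPM in Input and 129 CPM in TRAP.

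Rgs10 was low in Cell-TRAP (-) Inhibitors replicate 1 (575.97 CPM, others 651 to 657) and high in Tissue-Input of the sort comparison, replicate 2 (30.235 CPM, others 25.1 to 25.7). Rgs14 was low in Tissue-TRAP of the sort comparison, replicate 2, at 15.384 CPM against 19.2 to 19.7.

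Rgs16 was high in replicate 1 of Tissue-TRAP in both comparisons, at 27.459 CPM (others 23.1 to 23.8) and 19.768 CPM (others 18.4 to 18.6). It was high in Dounce-Input replicate 3 (5.7795 CPM, others 4.38 to 4.41) and in Cell-TRAP (+) Inhibitors replicate 2 (2.1153 CPM on 22 counts, others 0.974 to 1.12). At the floor, Rgs16 was 0.0 CPM in FACSAria-Input replicate 1, where the others held 4 counts each, and 0.40993 CPM on 6 counts in Tyto-TRAP replicate 4. Rgs20 was 1.8842 CPM on 13 counts in autoMACS-Input replicate 3, where the others held at most 2 counts. That library had the lowest total of the sort comparison (7129464). It also had the lowest summed microglial markers of its group, 17620 CPM against a group median of 29040. The part of either was not tested.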

How the results depend on the processing

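With the mouse as a block (paired by replicate number), the genes called in TRAP with inhibitors against without went from 94 to 150; the block ended the call of Rgs19 in Cell-Input against Tissue-Input of the sort comparison (0.96), and it changed no other call of a member in the 10 paired comparisons. That Rgs19 call was also lost with DESeq2's size factors and its Wald test (0.996 and 0.9965 on the log2 scale) and without Tyto-Input replicate 4 (0.98). The other counts of genes called stayed within 1.5 times under every alternative run, and no called value changed sign. Uncalled fold changes near 0 did change sign with a library left out, namely Rgs10, Rgs14, Rgs16 and Rgs20 with inhibitors against without in Input, Rgs2 (-0.14 to 0.06) and Rgs10 in Dounce-Input against Tissue-Input, Rgs20 in Cell-Input (-) Inhibitors against Tissue-Input and Rgs16 for TRAP against Input in Tissue of both comparisons; the last pair did so with DESeq2 too, as did that Rgs20 value. No direction is given for these. With each library left out in turn, the members called ranged from 1 to 3 (2 with all libraries) in Dounce against Cell (-) Inhibitors in TRAP, from 0 to 1 (1) with inhibitors against without in Input, from 0 to 2 (0) between the 4 sorts in TRAP and from 0 to 1 (0) in Input; the counts between sorts concern Rgs16 and Rgs20 at a few counts per library. Without Tissue-TRAP replicate 3, Rgs10 passed 2-fold in Cell-TRAP (+) Inhibitors against Tissue-TRAP (1.02). Without Dounce-TRAP replicate 1, Rgs16 was called lower than in Cell-TRAP (-) Inhibitors (-1.68), and without mouse replicate 3, Rgs20 was called lower in TRAP than in Input of Dounce (-1.31). The causes were not tested. CPM without TMM factors moved 49 of 140 group means of the members by more than 1 SD. Depth limits Rgs1 in Tissue-Input, Rgs16 and Rgs20 in the sorts, and every low member in Dounce-TRAP.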
